A study of Mus musculus with 6 samples.

Results

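Lin28a, Lin28b, Gdf11, Hmga2, Igf2bp1, Igf2bp2, Igf2bp3 and Sall4 are genes tied to the timing of trunk and tail formation in the mouse embryo. They were chosen by name, with earlier results of these data known. All 8 are found among the 37310 Ensembl gene identifiers counted in tailbuds at embryonic day 9.5. Polyadenylated RNA was sequenced from 3 libraries of Sd/Sd embryos, homozygous for Danforth's short tail, and from 3 libraries of WT/WT embryos. All came from an outbred CD-1 background. The mutation is an insertion close to Ptf1a that shortens the tail and spine, and the comparison asked which transcripts differ in the mutant tailbud. Tissue was cut just in front of the last somite, so a library is a mixture of all cell types of the tailbud, and fewer cells of a type cannot be told apart from less RNA per cell. Tailbuds of 2 embryos were combined where material was short; the labels do not tell which libraries these are.

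The LIN28 proteins bind precursors of the let-7 microRNAs and block their maturation. Mature let-7 in turn lowers LIN28, HMGA2 and the IGF2BP proteins by pairing with sites in their mRNAs, so early embryonic tissue with much LIN28 has little mature let-7. In the mouse, lasting Lin28 activity lengthens the tail, whereas GDF11, a secreted TGF-beta family ligand, ends trunk formation and starts the tail. SALL4 is a zinc finger factor of embryonic progenitors.

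The let-7 seed is shown first, since it ties most of the 8 genes to LIN28. In the RefSeq set on GRCm38.p6, 10 of 11 distinct mature let-7 and miR-98 sequences share the seed GAGGUAG, bases 2 to 8. These 4 differ outside the seed, which is in capitals:
mmu-let-7a-5p: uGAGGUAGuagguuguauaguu
mmu-let-7b-5p: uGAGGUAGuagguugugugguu
mmu-let-7d-5p: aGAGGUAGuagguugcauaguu
mmu-let-7i-5p: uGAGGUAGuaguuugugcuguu

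The match to this seed, CTACCTC on the mRNA strand only, was searched in the longest annotated 3' UTR of each gene (GENCODE M21). It was found in 7 of the 8 genes, and Gdf11 had 0 matches in 2811 bases. Lin28b, Hmga2 and Igf2bp1 had 4 matches each, Lin28a had 2, and Igf2bp2, Igf2bp3 and Sall4 had 1 each. Of 21037 genes with a 3' UTR, 9.02% held a match. The share grows with length. Among genes whose 3' UTR was within 25% of the length of the gene's own, it was 14.6% for Lin28a, 23.7% for Lin28b, 15% for Gdf11, 15.9% for Hmga2, 32.2% for Igf2bp1, 11.5% for Igf2bp2, 12.9% for Igf2bp3 and 11.1% for Sall4. A match is a run of letters, not a measured site of pairing.

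One match followed by A (CTACCTCA) is shown for each of the 7 genes, as DNA letters of the transcript with the seed match in capitals, and with the distance of its first base from the stop codon. All 7 genes are transcribed from the minus strand of GRCm38. The position was 909 bases in Lin28a (chromosome 4), 36 bases in Lin28b (chromosome 10), 58 bases in Hmga2 (chromosome 10), 1715 bases in Igf2bp1 (chromosome 11), 1313 bases in Igf2bp2 (chromosome 16), 548 bases in Igf2bp3 (chromosome 6) and 1082 bases in Sall4 (chromosome 2):
Lin28a: ttggagtgcacagcctgttgaaCTACCTCa
Lin28b: tcccttcacccgggcgggaagtCTACCTCa
Hmga2: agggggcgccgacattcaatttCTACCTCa
Igf2bp1: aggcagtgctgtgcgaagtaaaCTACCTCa
Igf2bp2: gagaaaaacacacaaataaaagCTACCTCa
Igf2bp3: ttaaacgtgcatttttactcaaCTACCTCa
Sall4: ggatgtgagggctttaatttatCTACCTCa

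**Figure D1:**
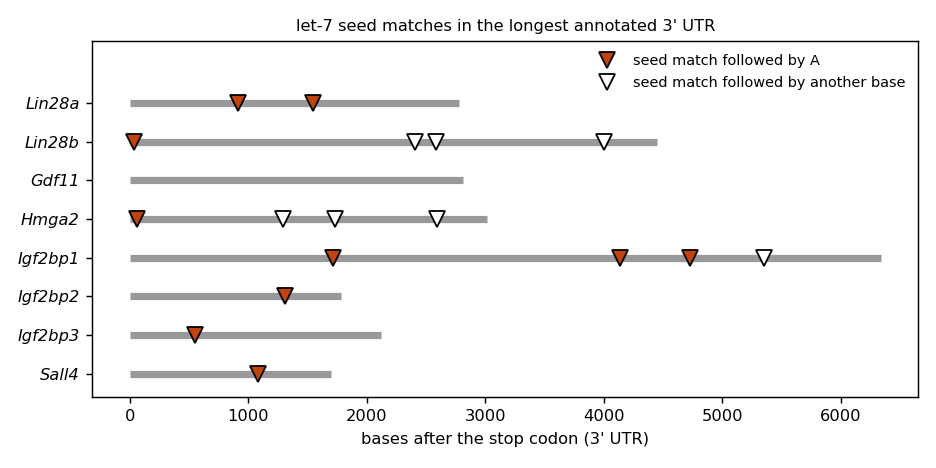
Positions of the let-7 seed match CTACCTC in the longest annotated 3' UTR of each gene, in bases after the stop codon; grey bars are the 3' UTRs, filled triangles are matches followed by A and open triangles are matches followed by another base. Igf2bp1 has the longest 3' UTR of the 8, at 6337 bases, with 3 of its 4 matches followed by A, and Gdf11 has no match.

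The 3 Sd/Sd libraries held 41788978 to 62296689 counts each, and the 3 WT/WT libraries 42352598 to 52767718. Ptf1a, which the insertion activates, had 2671 counts over the Sd/Sd libraries and 8 over the WT/WT libraries, so the labels fit the genotype. T, Tbx6, Wnt3a and Cyp26a1, genes of tailbud progenitors and presomitic mesoderm, were present at 18.7 CPM or more in all 6 libraries. They were picked by hand, beyond the naming rule given below. Others of the same lists were lower in some libraries. Fgf8 was at 12.5 and Msgn1 at 17 CPM in Sd/Sd replicate 2, and Ripply2 was at 0.143 and Mesp2 at 0.51 CPM in Sd/Sd replicate 3. Levels are in CPM, the counts of a gene relative to the size of its library, after TMM scaling, a correction for differences in library composition. The 8 genes drew 24402 to 304619 counts each over the 6 libraries, all passed the filter on low counts, and 15471 genes were tested in all.

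None of the 8 genes passed the test for a difference between Sd/Sd and WT/WT, and all 8 had overlapping groups. The test was edgeR's quasi-likelihood test with Benjamini-Hochberg adjustment over all genes and a threshold of 0.05, and the adjusted p of each of the 8 was 1.00. At an unadjusted p under 0.05 there were likewise 0 of the 8, and DESeq2 and limma-voom also called 0. Over all tested genes 0.0582% were called (0.0388% higher and 0.0194% lower in Sd/Sd), 2.90% had an unadjusted p under 0.05, and 7.68% had groups that did not overlap. The log2 fold changes of the 8 ran from -0.07 to 0.10 with a median of 0.06, against a median of 0.00 over all genes.

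**Figure D2:**
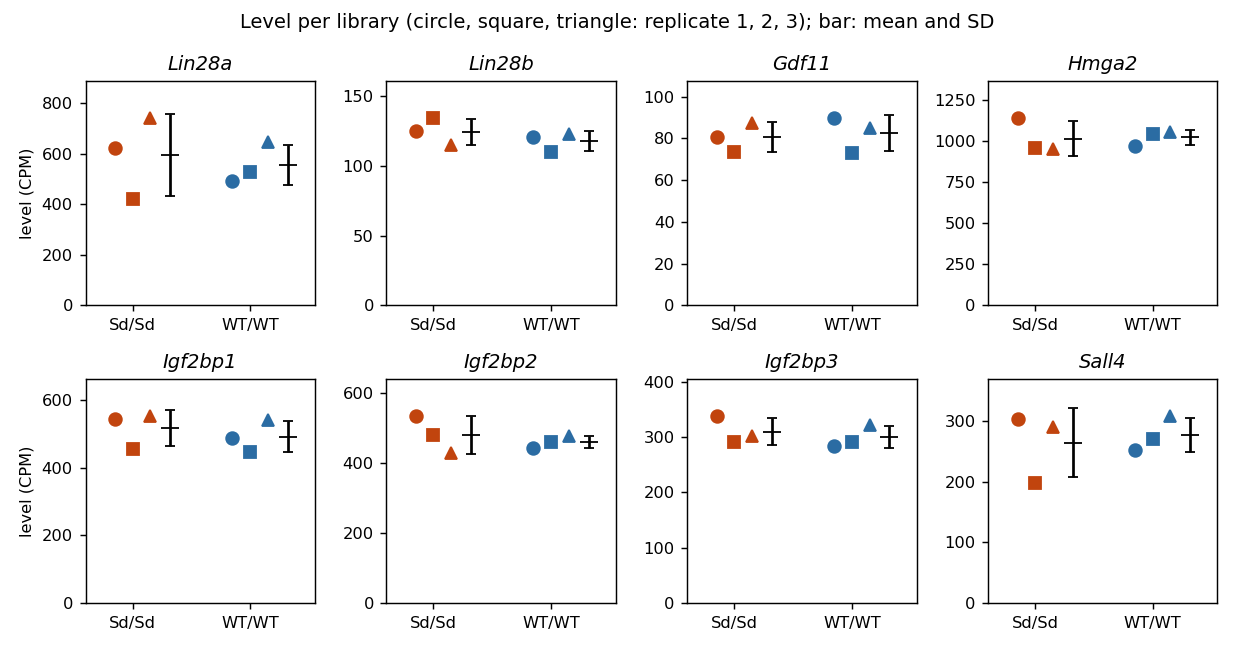
Level in CPM (linear axis from 0) of the 8 genes in the 3 Sd/Sd libraries (left, orange) and the 3 WT/WT libraries (right, blue); circle, square and triangle are replicates 1, 2 and 3, and bars give the mean and SD of the group. The groups overlap for every gene, and the Sd/Sd libraries spread widest for Lin28a, at 420 to 740 CPM.

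Lin28a, the paralogue of the pair known for its role in pluripotent and early embryonic cells, was abundant in every library. Lin28a (ENSMUSG00000050966.2, chromosome 4) measured 623, 420 and 740 CPM in Sd/Sd replicates 1 to 3, against 492, 529 and 646 CPM in WT/WT replicates 1 to 3. The lowest and the highest library of the 6 were both Sd/Sd. The means were 594 ± 162 CPM in Sd/Sd and 556 ± 80.5 CPM in WT/WT (SD, n = 3 each), a log2 fold change of 0.10 (SE 0.22, 95% interval -0.45 to 0.65, edgeR adjusted p = 1.00). The interval covers changes between 0.73-fold and 1.57-fold, the widest of the 8 genes. The sign rested on Sd/Sd replicate 3: without it the log2 fold change was -0.09, and without Sd/Sd replicate 2 it was 0.29.

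Lin28b, the second paralogue, which blocks let-7 processing as well, varied much less. Lin28b (ENSMUSG00000063804.6, chromosome 10) measured 125, 134 and 115 CPM in Sd/Sd replicates 1 to 3, against 121, 110 and 123 CPM in WT/WT replicates 1 to 3. Its means were 124 ± 9.34 CPM in Sd/Sd and 118 ± 7.24 CPM in WT/WT (SD, n = 3 each), a log2 fold change of 0.08 (SE 0.08, 95% interval -0.10 to 0.26, edgeR adjusted p = 1.00). Sd/Sd replicate 2, the library lowest in Lin28a, was highest in Lin28b, and Sd/Sd replicate 3 had the reverse position within its group. The ratio of Lin28a to Lin28b in CPM, not corrected for length, was therefore 4.99, 3.15 and 6.44 in Sd/Sd replicates 1 to 3, and 4.08, 4.83 and 5.25 in WT/WT replicates 1 to 3.

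Hmga2, an AT-hook chromatin protein and a much-studied let-7 target, had the highest count of the 8 genes. Hmga2 (ENSMUSG00000056758.8, chromosome 10) measured 1139, 957 and 953 CPM in Sd/Sd replicates 1 to 3, against 971, 1045 and 1056 CPM in WT/WT replicates 1 to 3. Sd/Sd replicate 1 stood above the other libraries, and the remaining 2 Sd/Sd libraries lay below all of WT/WT. The means were 1016 ± 106 CPM in Sd/Sd and 1024 ± 46.0 CPM in WT/WT (SD, n = 3 each), a log2 fold change of -0.01 (SE 0.08, 95% interval -0.20 to 0.17, edgeR adjusted p = 1.00). Hmga2 exceeded 99.5% of tested genes in mean CPM.

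The IGF2BP proteins bind mRNAs such as that of Igf2 and act on their stability, transport and translation. Igf2bp1 (ENSMUSG00000013415.3, chromosome 11) measured 543, 455 and 552 CPM in Sd/Sd replicates 1 to 3, against 488, 447 and 539 CPM in WT/WT replicates 1 to 3. Replicate 2 was lowest in both groups. Its log2 fold change was 0.07 (SE 0.09, 95% interval -0.14 to 0.29, edgeR adjusted p = 1.00).

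Igf2bp2 (ENSMUSG00000033581.10, chromosome 16) measured 535, 480 and 428 CPM in Sd/Sd replicates 1 to 3, against 445, 461 and 478 CPM in WT/WT replicates 1 to 3. The WT/WT libraries lay inside the Sd/Sd range. Its log2 fold change was 0.06 (SE 0.08, 95% interval -0.13 to 0.25, edgeR adjusted p = 1.00).

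Igf2bp3 (ENSMUSG00000029814.8, chromosome 6) measured 338, 291 and 302 CPM in Sd/Sd replicates 1 to 3, against 284, 292 and 322 CPM in WT/WT replicates 1 to 3. Sd/Sd replicate 1 was the highest library and the others intermixed. Its log2 fold change was 0.05 (SE 0.08, 95% interval -0.13 to 0.23, edgeR adjusted p = 1.00). Of the summed CPM of the 3 Igf2bp genes, Igf2bp3 made up 23.5% to 23.9% in Sd/Sd, against 23.3% to 24.4% in WT/WT. Igf2bp1 made up 37.1% to 43.1% in Sd/Sd, against 37.2% to 40.2% in WT/WT, and Igf2bp2 33.4% to 39.1% in Sd/Sd, against 35.7% to 38.4% in WT/WT. In GENCODE M21 the 3' end of Igf2bp3 overlaps Malsu1 on the other strand. Whether reads were counted by strand is unknown, so reads of the overlap may belong to either gene; Malsu1 had 2589 counts in Sd/Sd and 2636 in WT/WT.

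Gdf11, the secreted ligand, was measured at a moderate level. Gdf11 (ENSMUSG00000025352.6, chromosome 10) stood at 80.8, 73.7 and 87.6 CPM in Sd/Sd replicates 1 to 3, against 89.6, 72.8 and 85.0 CPM in WT/WT replicates 1 to 3. Replicate 2 was lowest in both groups. The means were 80.7 ± 6.98 CPM in Sd/Sd and 82.5 ± 8.66 CPM in WT/WT (SD, n = 3 each), a log2 fold change of -0.03 (SE 0.10, 95% interval -0.25 to 0.19, edgeR adjusted p = 1.00).

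Sall4 (ENSMUSG00000027547.11, chromosome 2) measured 303, 198 and 290 CPM in Sd/Sd replicates 1 to 3, against 252, 270 and 308 CPM in WT/WT replicates 1 to 3. Sd/Sd replicate 2 lay below the other 5 libraries, as it did for Lin28a. The means were 264 ± 57.2 CPM in Sd/Sd and 277 ± 28.4 CPM in WT/WT (SD, n = 3 each), a log2 fold change of -0.07 (SE 0.17, 95% interval -0.47 to 0.33, edgeR adjusted p = 1.00). Without Sd/Sd replicate 2 the log2 fold change was 0.10. Reads of Gm14261, a gene model that overlaps the start of Sall4 on the other strand in GENCODE M21, came to 177 counts in Sd/Sd and 197 in WT/WT. Gm13061, which overlaps the start of Lin28a in the same way, had 41 counts in Sd/Sd and 37 in WT/WT.

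**Figure D3:**
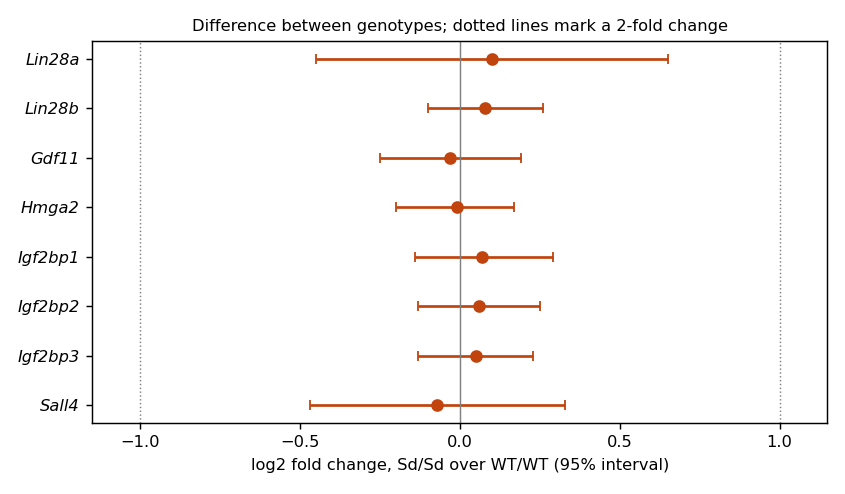
Log2 fold change of each gene, Sd/Sd over WT/WT, with its 95% interval from the edgeR fit (3 libraries a group); dotted lines mark a 2-fold change in either direction. All 8 intervals include 0 and lie inside the 2-fold lines, and those of Lin28a (-0.45 to 0.65) and Sall4 (-0.47 to 0.33) are the widest.

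Per kilobase of exon, Hmga2 and Lin28a were the highest of the 8. With all exons of a gene merged, Hmga2 stood at 150 ± 15.7 CPM per kb in Sd/Sd and 151 ± 6.80 in WT/WT, and Lin28a at 149 ± 40.4 in Sd/Sd and 139 ± 20.1 in WT/WT (SD, n = 3 each). With this length their ranges overlapped in both groups. With the longest transcript they did not: Hmga2 stood at 267 ± 27.9 CPM per kb in Sd/Sd and 269 ± 12.1 in WT/WT, against 170 ± 46.1 in Sd/Sd and 159 ± 23.0 in WT/WT for Lin28a, so the distance between the 2 genes depends on which exons are counted. The values that follow are again with all exons merged. Igf2bp2 followed at 65.0 ± 7.23 CPM per kb in Sd/Sd and 62.3 ± 2.24 in WT/WT. Next came Igf2bp1 at 53.4 ± 5.53 in Sd/Sd and 50.7 ± 4.74 in WT/WT, Sall4 at 47.6 ± 10.3 in Sd/Sd and 50 ± 5.12 in WT/WT, and Igf2bp3 at 38.0 ± 3.01 in Sd/Sd and 36.7 ± 2.48 in WT/WT. The ranges of Igf2bp1 and Sall4 overlapped in both groups, and those of Sall4 (35.8 to 54.7) and Igf2bp3 (35.7 to 41.4) overlapped in Sd/Sd. Gdf11 at 19.9 ± 1.72 CPM per kb in Sd/Sd and 20.3 ± 2.13 in WT/WT and Lin28b at 13.7 ± 1.03 in Sd/Sd and 13.0 ± 0.799 in WT/WT were lowest. Only 3 of the 8 places, those of Hmga2, Lin28a and Igf2bp2, were the same with the length of the longest transcript, under which Gdf11 was last and Lin28b next to last.

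Lin28a and Sall4 differed more between libraries of a genotype than most well-expressed genes, and much of this spread came from Sd/Sd replicate 2. The SD of log2 CPM within groups was 0.33 for Lin28a and 0.26 for Sall4, against a median of 0.09 over the 4853 genes with a mean of 50 CPM or more, of which 97.7% had a lower SD than Lin28a and 95.7% a lower SD than Sall4. The other 6 lay between 0.10 and 0.14. These 4853 genes were not matched to Lin28a or Sall4 in level. Without Sd/Sd replicate 2 the SE of the log2 fold change was 0.09 in place of 0.17 for Sall4 and 0.13 in place of 0.22 for Lin28a, while the other 6 genes had 0.08 to 0.10. As a description over 6 libraries, log2 CPM of Lin28a correlated with that of Sall4 at 0.88, with Igf2bp1 at 0.86, and with Lin28b at -0.44. Depth and the levels of tissue markers differed between the libraries. These correlations carry no test, and the part of depth or tissue makeup in them was not tested.

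Markers of the tissues in the sample also varied between libraries of a genotype. Summed CPM of 7 presomitic mesoderm markers was 438, 280 and 421 in Sd/Sd replicates 1 to 3, against 354, 314 and 417 in WT/WT replicates 1 to 3. The library lowest in Lin28a and Sall4, Sd/Sd replicate 2, was thus also lowest in this sum. Among the single markers it was lowest in Tbx6, Msgn1 and Dll1. It was not lowest in Hes7, Ripply2 or Lfng, and it was the highest library in Mesp2, at 8.74 CPM. Summed CPM of 10 somite markers was 475, 583 and 108 in Sd/Sd replicates 1 to 3, against 410, 300 and 313 in WT/WT replicates 1 to 3. Sd/Sd replicate 2 was highest and Sd/Sd replicate 3, the library highest in Lin28a, was lowest, with Pax1, a gene of the sclerotome, at 0 counts there and in WT/WT replicate 2. The 7 neural tube markers found in the files summed to 144, 180 and 53.4 CPM in Sd/Sd replicates 1 to 3, against 145, 99.9 and 102 CPM in WT/WT replicates 1 to 3. Among the other marker sums, Sd/Sd replicate 2 was also lowest for notochord and floor plate (97.5 CPM), endothelium (413 CPM) and primordial germ cells (94.7 CPM). It was not lowest for hindgut endoderm, blood or surface ectoderm.

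Blood markers, among them globin genes, summed to 1722, 9975 and 2780 CPM in Sd/Sd replicates 1 to 3, against 4224, 8769 and 3596 CPM in WT/WT replicates 1 to 3, so replicate 2 was highest in both groups. Of the 7 blood genes, Alas2 and Gata1 were at 0 in every library, while the globin gene Hba-x was at 643 CPM or more in each. Whether RNA of Alas2 and Gata1 was absent or was not counted was not tested. Primordial germ cells express Lin28a and Sall4 too. Their 11 markers summed to 118, 94.7 and 144 CPM in Sd/Sd replicates 1 to 3, against 120, 112 and 132 CPM in WT/WT replicates 1 to 3. Most of this sum was Kit, at 54.9 to 105 CPM in Sd/Sd and 72.5 to 89.9 CPM in WT/WT. Nanos3, Ddx4, Dppa3, Nanog and Prdm14 were at 1.23 CPM or less in every library, so the sum says little about germ cell number. Of the 10 markers tested, 3 had a positive and 7 a negative log2 fold change (median -0.11). None passed the test, by edgeR with 0 at an unadjusted p under 0.05. Dazl, the marker that was not tested, was at 0 in some libraries but not in all. The part of tissue makeup in the spread of Lin28a and Sall4 was not tested.

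**Figure D4:**
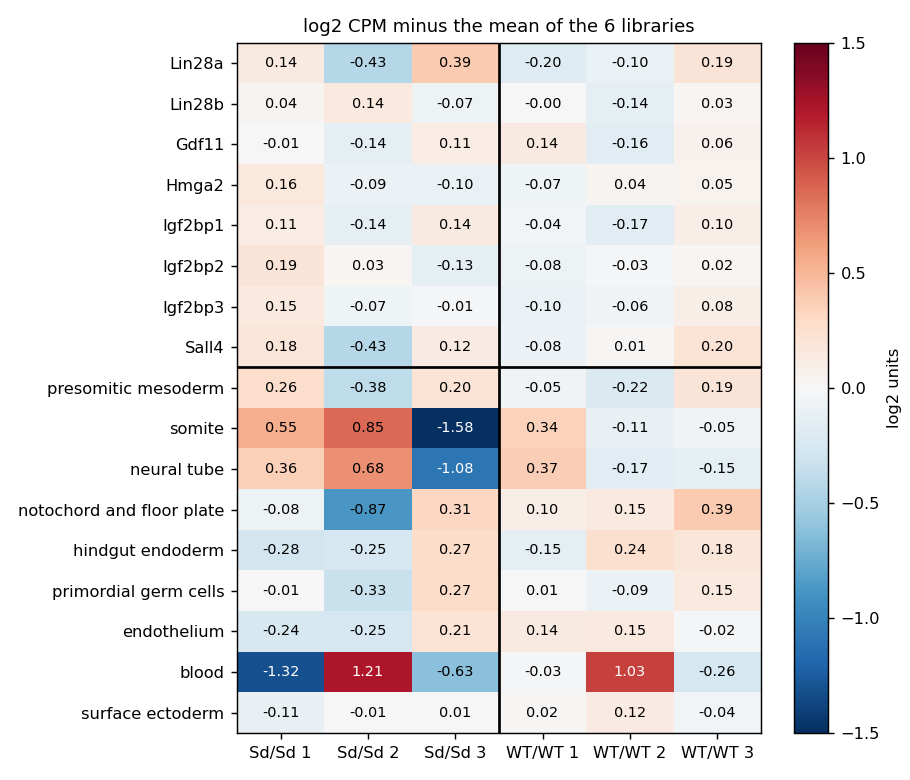
Log2 CPM minus the mean of the 6 libraries for the 8 genes (top) and for the summed CPM of 9 sets of tissue markers (bottom), with Sd/Sd libraries on the left and WT/WT on the right; each cell prints its value, and colours stop at 1.5. Sd/Sd replicate 2 is at -0.43 for both Lin28a and Sall4, and Sd/Sd replicate 3 is at 0.39 for Lin28a and at -1.58 for somite markers.

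The genes whose level followed each of the 8 most closely, among genes of 5 CPM or more on average, were picked by Pearson r of log2 CPM over the 6 libraries. For Lin28a these were Fam208b (0.997) and Lrif1 (0.995), and 179 genes reached 0.95. For Sall4 they were Laptm4b (0.986) and Zyx (0.984), for Lin28b Atg7 (0.990) and Nfkbil1 (0.988), and for Gdf11 Ccdc84 (0.994) and Slc7a2 (0.984). For Hmga2 they were Msi2 (0.991), an RNA-binding protein gene, and Ubqln1 (0.985). For Igf2bp1 they were Plcg1 (0.997) and Lcmt2 (0.994), for Igf2bp2 Top1 (0.996) and Msl1 (0.981), and for Igf2bp3 Krit1 (0.995) and Tubgcp4 (0.987). For each of the 8, between 12 and 179 genes reached an r of 0.95 over these 6 libraries.

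Around LIN28, genes of microRNA processing passed in 0 of 19 cases, and 0 of 19 had an unadjusted p under 0.05. Of these, 17 had a positive and 2 a negative log2 fold change, against 7718 and 7753 of all tested genes. The 19 genes were measured in the same libraries, so their signs are not independent and this split carries no test. The median of the list was 0.05, and ran from 0.02 without Sd/Sd replicate 1 to 0.09 without Sd/Sd replicate 2. The smallest p belonged to Dis3l2, the exonuclease that degrades uridylated pre-let-7, at 36.8 ± 3.03 CPM in Sd/Sd and 31.8 ± 2.39 CPM in WT/WT (SD, n = 3 each; log2 fold change 0.21, SE 0.09, edgeR adjusted p = 1.00). Dicer1, which cuts pre-let-7 into its mature form, measured 294 ± 35.3 CPM in Sd/Sd and 272 ± 8.58 CPM in WT/WT. Dgcr8, the partner of Drosha in the nucleus, measured 107 ± 3.38 CPM in Sd/Sd and 101 ± 1.22 CPM in WT/WT, without overlap between groups. That held for 1 of the 19, against 7.68% of all tested genes.

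Mature let-7 is not measured in polyadenylated RNA. Of 10 let-7 and miR-98 gene models in the files, 6 were at 0 in every library. Whether their RNA was absent or was not counted was not tested. Mirlet7d had 23, 13 and 25 counts in Sd/Sd replicates 1 to 3, against 13, 7 and 28 counts in WT/WT replicates 1 to 3. Mirlet7i, which was below the filter on low counts and was named after its values were seen, had 3, 6 and 10 counts in Sd/Sd replicates 1 to 3, against 1, 0 and 1 counts in WT/WT replicates 1 to 3. Counts pooled over each group gave Mirlet7i a ratio, Sd/Sd over WT/WT, of 9.10 with a 95% interval of 2.20 to 80.6. For Mirlet7d the ratio was 1.22 with an interval of 0.821 to 1.82. Both intervals (exact binomial) hold counting error only and leave out the spread between libraries. The fit with no filter on low counts gave Mirlet7i an edgeR adjusted p = 1.00.

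Other let-7 targets, beyond the 8 genes, passed in 0 of 24 cases, and 0 of 24 had an unadjusted p under 0.05 (median log2 fold change 0.02, 15 positive and 9 negative). Groups did not overlap for 2 of the 24, against 7.68% of all tested genes. A seed match was present in the 3' UTR of 19 of the 25 listed genes. Hmga1, the paralogue of Hmga2, measured 432 ± 71.3 CPM in Sd/Sd and 365 ± 44.0 CPM in WT/WT (log2 fold change 0.24, SE 0.13, edgeR adjusted p = 1.00). Ccnd2, a D-type cyclin gene, measured 619 ± 149 CPM in Sd/Sd and 514 ± 57.0 CPM in WT/WT, and Arid3a, a DNA-binding protein gene, 197 ± 9.78 CPM in Sd/Sd and 211 ± 8.64 CPM in WT/WT.

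Among genes of GDF11 signalling 0 of 18 passed, while 3 of 18 had an unadjusted p under 0.05, which is 16.7% against 2.90% of all tested genes. The 3 were Furin, Fstl3 and Acvr1b, each lower in Sd/Sd without overlap between groups, and none was called. Groups did not overlap for 3 of the 18, against 7.68% of all tested genes. The list was chosen with earlier results of these data known, so neither share is independent of the values. Furin, a protease that can cleave TGF-beta family precursors, measured 84.6, 81.5 and 78.6 CPM in Sd/Sd replicates 1 to 3, against 93.1, 102 and 96.0 CPM in WT/WT replicates 1 to 3 (log2 fold change -0.25, SE 0.07, unadjusted p = 0.00474, edgeR adjusted p = 1.00). Fstl3, a secreted antagonist of activins and GDF11, measured 3.43 ± 0.268 CPM in Sd/Sd and 4.77 ± 0.549 CPM in WT/WT (log2 fold change -0.47, SE 0.19, edgeR adjusted p = 1.00).

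Acvr1b, a type I receptor, measured 44.3 ± 4.40 CPM in Sd/Sd and 51.5 ± 1.72 CPM in WT/WT (SD, n = 3 each; log2 fold change -0.22, SE 0.09, edgeR adjusted p = 1.00). All 9 hindgut markers and all 7 notochord and floor plate markers had negative log2 fold changes, with medians of -0.52 and -0.58, and Shh, which is in both sets, was the 1 gene called lower in each. The 7 endothelium markers and the 5 tested blood markers were likewise all negative, with medians of -0.20 and -0.22, and 0 were called. The part of these tissues in the values of Furin, Fstl3 and Acvr1b was not tested. The type II receptor genes Acvr2a and Acvr2b had log2 fold changes of 0.06 and 0.02. Pcsk5, the protease that processes GDF11, had 0.07, and these 3 were named after their values were seen. Mstn, the closest relative of Gdf11, did not pass the filter, with 0 to 5 counts a library.

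Genes of the trunk-to-tail transition passed in 0 of 19 cases, and 0 of 19 had an unadjusted p under 0.05 (median log2 fold change -0.10, 6 positive and 13 negative). Hoxd13, a posterior Hox gene that marks the end of the axis, measured 42.2, 35.5 and 37.2 CPM in Sd/Sd replicates 1 to 3, against 56.5, 48.0 and 37.5 CPM in WT/WT replicates 1 to 3. The highest 2 values were WT/WT, and the third WT/WT library lay inside the Sd/Sd range (log2 fold change -0.31, SE 0.14, edgeR adjusted p = 1.00). Hoxd11, a Hox gene of the same cluster, measured 45.1 ± 10.7 CPM in Sd/Sd and 61.8 ± 14.8 CPM in WT/WT, and Cdx1, a caudal homeobox gene, 9.15 ± 1.72 CPM in Sd/Sd and 11.4 ± 1.13 CPM in WT/WT. Hoxd12, named after its values were seen, had the lowest log2 fold change of the list at -1.21 (SE 0.90), with 1.77 to 6.02 CPM in Sd/Sd, against 2.11 to 17.6 CPM in WT/WT. The median of this list ran from -0.27 without Sd/Sd replicate 3 to 0.10 without Sd/Sd replicate 2. It was -0.16 without Sd/Sd replicate 1, -0.18 without WT/WT replicate 2, and -0.17 both with the replicate block and with limma-voom. Isl1, a target of GDF11 in the hindlimb-forming region, and Nr6a1, a nuclear receptor gene of the trunk, were named after their values were seen, at 39.2 ± 8.79 and 106 ± 16.7 CPM in Sd/Sd, against 43.5 ± 1.72 and 94.2 ± 15.5 CPM in WT/WT.

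**Figure D5:**
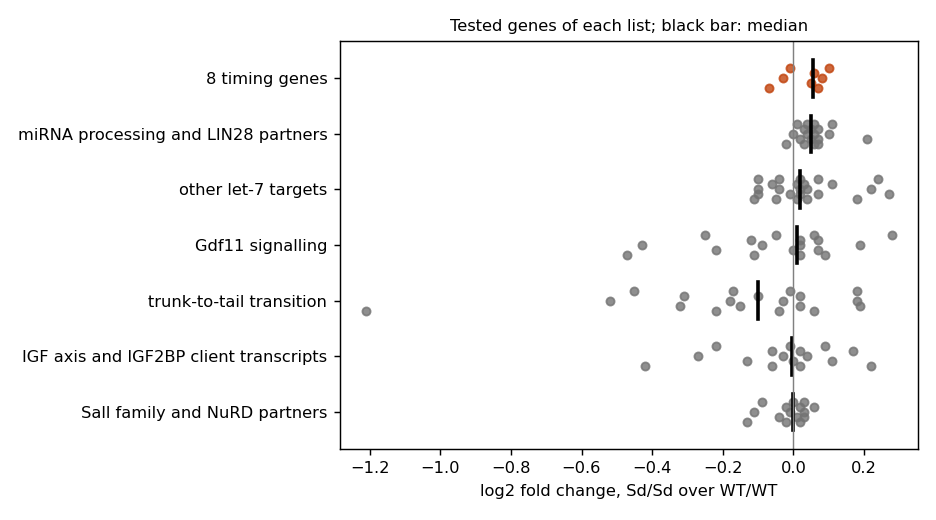
Log2 fold change, Sd/Sd over WT/WT, of the tested members of the 8 timing genes and of 6 related gene lists; each point is a gene and black bars are medians. The 8 genes lie between -0.07 and 0.10, and the medians of the lists between -0.10 and 0.05; no gene shown passed the test.

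Transcripts of the IGF axis and clients of the IGF2BP proteins passed in 0 of 16 cases, and 0 of 16 had an unadjusted p under 0.05 (8 positive, 8 negative). H19, an imprinted noncoding RNA, measured 7141 ± 640 CPM in Sd/Sd and 6339 ± 630 CPM in WT/WT (SD, n = 3 each; log2 fold change 0.17, SE 0.09, edgeR adjusted p = 1.00). Cd44, an adhesion receptor gene, measured 14.0 ± 4.33 CPM in Sd/Sd and 18.7 ± 2.24 CPM in WT/WT, and Igfbp3, a carrier of IGFs, 59.4 ± 10.7 CPM in Sd/Sd and 69.1 ± 8.86 CPM in WT/WT. Igf2, named after its values were seen, measured 3951 ± 471 CPM in Sd/Sd and 3852 ± 354 CPM in WT/WT.

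The other Sall genes and the NuRD chromatin complex that SALL4 recruits passed in 0 of 15 cases, and 0 of 15 had an unadjusted p under 0.05 (7 positive, 8 negative, between -0.13 and 0.06). Mta3, a NuRD subunit gene, measured 37.8 ± 2.12 CPM in Sd/Sd and 41.5 ± 1.57 CPM in WT/WT, without overlap between groups (SD, n = 3 each; log2 fold change -0.13, SE 0.08, edgeR adjusted p = 1.00). That held for 1 of the 15, against 7.68% of all tested genes. Chd4, the main NuRD remodeller gene, measured 978 ± 56.0 CPM in Sd/Sd and 938 ± 41.5 CPM in WT/WT, and Chd3, a related remodeller gene, 249 ± 7.80 CPM in Sd/Sd and 267 ± 17.5 CPM in WT/WT. DESeq2 and limma-voom also called 0 genes of the 6 lists.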

How the data were processed

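Per the labels, polyadenylated RNA of tailbuds was sequenced with a stranded mRNA kit. The deposited files hold raw counts per gene, 1 file a library. The submitters' processing notes name bcl2fastq 2.17.1.14, CASAVA, STAR 2.5.2b, SAMtools, DESeq2 and mm9; how reads were assigned to genes (counter, strand, reads with several matches) is not stated there. GENCODE M21 (GRCm38) named 32620 of 37310 identifiers and gave chromosomes, lengths, 3' UTRs and overlaps between genes; since its build is not that of the files, no coordinates are printed.

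Genes passing filterByExpr (minimum count 10) were fitted with edgeR 4.0.16 in R 4.3.3 (TMM, robust quasi-likelihood, 2-sided). SE is the size of the log2 fold change divided by the root of F; 95% intervals use the fit's degrees of freedom. Alternatives used DESeq2 1.42.0, limma 3.58.1 (voom), other scalings and filters, a replicate block, and each library left out. As a check of the code, the fit was also run on simulated counts drawn for each gene independently, without shifts in tissue makeup. No result here rests on that run. The labels do not say whether libraries of a genotype come from different litters; the p-values rest on the spread among them, which may be partly technical, and 3 against 3 libraries cannot give an exact permutation p under 0.1.

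Deviations from group means correlated at 0.194, 0.144 and 0.275 for libraries of the same number, all over 0.1. However, WT/WT replicate 1 and Sd/Sd replicate 2 also correlated at 0.182. The labels do not state a pairing, so whether the numbers pair the libraries is unknown. The main fit was unpaired, and the replicate block, which pairs by number, was used as an alternative only. The 8 genes and the lists were chosen with earlier results of these data known. Besides the 8 and Ptf1a, the rule names up to 4 called genes of each list, or else the 3 with the smallest p. It also names the 2 genes most like each of the 8. Tested genes of the lists that are named beyond it are marked in the text. Marker genes, let-7 gene models and overlapping gene models were named outside the rule.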

Additional observations from a re-analysis of the deposited data

How the results depend on the processing

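In 112 refits of the 8 genes under other settings, 0 passed the threshold (smallest adjusted p = 0.837) and 0 had an unadjusted p under 0.05, by edgeR, DESeq2 or limma-voom. In the 64 that kept all libraries every sign held and the largest move of a log2 fold change was 0.04. Leaving out 1 library at a time gave log2 fold changes of -0.09 to 0.29 for Lin28a, 0.02 to 0.13 for Lin28b, -0.11 to 0.04 for Gdf11, -0.10 to 0.03 for Hmga2, 0.01 to 0.16 for Igf2bp1, -0.02 to 0.14 for Igf2bp2, -0.01 to 0.11 for Igf2bp3 and -0.18 to 0.10 for Sall4, and the sign of 6 genes turned. It turned for Lin28a without Sd/Sd replicate 3 (-0.09), and for Gdf11 without WT/WT replicate 1 (0.04) or Sd/Sd replicate 2 (0.03). For Hmga2 the sign turned without WT/WT replicate 2 (0.00 when rounded), WT/WT replicate 3 (0.01), Sd/Sd replicate 2 (0.03) or Sd/Sd replicate 3 (0.03). It also turned for Igf2bp2 (-0.02) and Igf2bp3 (-0.01) without Sd/Sd replicate 1, and for Sall4 without WT/WT replicate 3 (0.01) or Sd/Sd replicate 2 (0.10). The replicate block, which pairs libraries by number, changed no call among the 8 genes or the lists and gave Lin28a 0.07 and Sall4 -0.09. Over all genes, 6 were called higher and 3 lower in Sd/Sd. DESeq2 called 19 higher and 15 lower, limma-voom 3 and 0, non-robust dispersions 3 and 0, and no filter on low counts 5 lower; leaving out 1 library called 2 to 5 higher and 0 to 1 lower. With the longest transcript as length, 3 of 8 genes kept their place in the order of levels. The causes were not tested. With 3 libraries a group, changes inside the 95% intervals cannot be resolved.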
